A study of Mus musculus with 6 samples.

Results

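The 6 RNA-Seq libraries of this study were compared by how much epithelial and how much immune RNA each one held, rather than by genotype. Each library was made from isolated mammary epithelial cells of pubertal females, 3 from *fat-1* mice and 3 from wild-type (WT) mice. The libraries were ranked by the CPM (counts scaled to a library total of 1000000) of the locus that holds *Krt8*, the gene of a keratin of luminal cells, and were divided into a set of 3 with the highest values (*fat-1* sample 1, WT sample 1 and WT sample 2, called epithelial-rich) and a set of 3 with the lowest (*fat-1* sample 3, WT sample 3 and *fat-1* sample 2, called epithelial-poor). All 6 libraries of the series are in 1 of the 2 sets, and both genotypes are in each. Values of the 6 libraries are given in that order throughout, from the highest to the lowest *Krt8* level.

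All mice were females of 6 to 8 weeks on the FVB/NJ strain and stayed from birth on their parents' modified AIN93G diet, with 10% fat by weight from safflower oil and 22% of the energy from fat. The *fat-1* mice carried a transgene from *Caenorhabditis elegans* whose n-3 desaturase acts in the whole body and makes n-3 from n-6 fatty acids, and the WT mice did not carry it. The inguinal glands of several mice were pooled for each sample, in numbers that the methods state in different ways, so a sample is not 1 animal. The lymph nodes were removed, the glands were digested for 18 h with collagenase and hyaluronidase, and RNA was taken from the released cells. No sorting step is described, and the oestrous stage of the mice was not determined.

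The ducts of the mammary gland have an inner layer of luminal cells, which carry keratins such as Krt8 and Krt18 and take up hormone signals or keep the potential for milk production, and an outer layer of contractile basal cells that carry Krt5 and Krt14. Around the ducts lie fibroblasts, vessels, fat and many immune cells, and the inguinal gland holds a lymph node in which B cells and T cells are packed together. Interferons, the signal proteins of antiviral and T cell responses, switch on a set of genes in nearly any cell that carries their receptors, through transcription factors of the Stat and Irf families.

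The counts of a library summed to 204539059 at the least and 232148824 at the most, and 3 counts, the limit that a count of 0 allows, came to 0.0129 to 0.0147 CPM. Of 53912 loci, where a locus is the sum of all rows that share an assembled locus number, 14660 had a mean of at least 1 CPM over the 6 libraries. Normalization factors by the trimmed mean of M values differed by at most 1.05 times, and the median log2 ratio between the sets over all loci was 0.01. The first principal component of the log2 CPM held 67.8% of the variance and placed the libraries in the *Krt8* order, at 48.9, 35.0, 2.09, -11.6, -36.9 and -37.5. The second held 17.1% and placed *fat-1* sample 1 at 22.5 and WT sample 2 at -24.9. The libraries next to the boundary, WT sample 2 and *fat-1* sample 3, therefore lay near each other on the first component.

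*Krt8* (chr15:101996698-102004482, minus strand, in GRCm38) was at 908, 657 and 387 CPM in the epithelial-rich libraries and 336, 222 and 212 CPM in the epithelial-poor libraries. Just inside and just outside the boundary, WT sample 2 and *fat-1* sample 3 differed by 1.15 times. The order depends on adding the 2 rows of the locus, since by the row that carries the symbol alone WT sample 2 had 144 CPM and would have been the lowest of the 6. *Krt18*, which codes for the partner of Krt8 in the same filament, was at 918, 657 and 357 CPM in the epithelial-rich libraries and 309.5, 198 and 195 CPM in the epithelial-poor libraries. It too depends on adding 2 rows, since by the row with the symbol *fat-1* sample 3 had 307 CPM and lay above WT sample 2 at 229 CPM. *Epcam*, an adhesion protein of epithelial cells whose locus is a single row, was at 796, 625 and 348 CPM in the epithelial-rich libraries and 332, 200.1 and 199 CPM in the epithelial-poor libraries and gave the same order. For *Cdh1*, *Krt5* and *Krt14*, in contrast, *fat-1* sample 3 lay above WT sample 2.

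*Ptprc* (chr1:138062861-138175708, minus strand), which codes for CD45 and is carried by all leukocytes, ran the other way, at 168, 159.5 and 196 CPM in the epithelial-rich libraries and 269, 400.0 and 411 CPM in the epithelial-poor libraries. The 3 libraries with the least *Krt8* were thus the 3 with the most *Ptprc*, and the highest *Ptprc* level was 2.58 times the lowest. Fewer cells of a type and less RNA per cell of that type cannot be told apart in these bulk libraries. Because *Krt8* in the same libraries chose the sets, the differences between the sets are given as descriptions without a test, and a standard error (SE) beside a log2 ratio describes the spread among 3 libraries in each set.

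**Figure D1:**
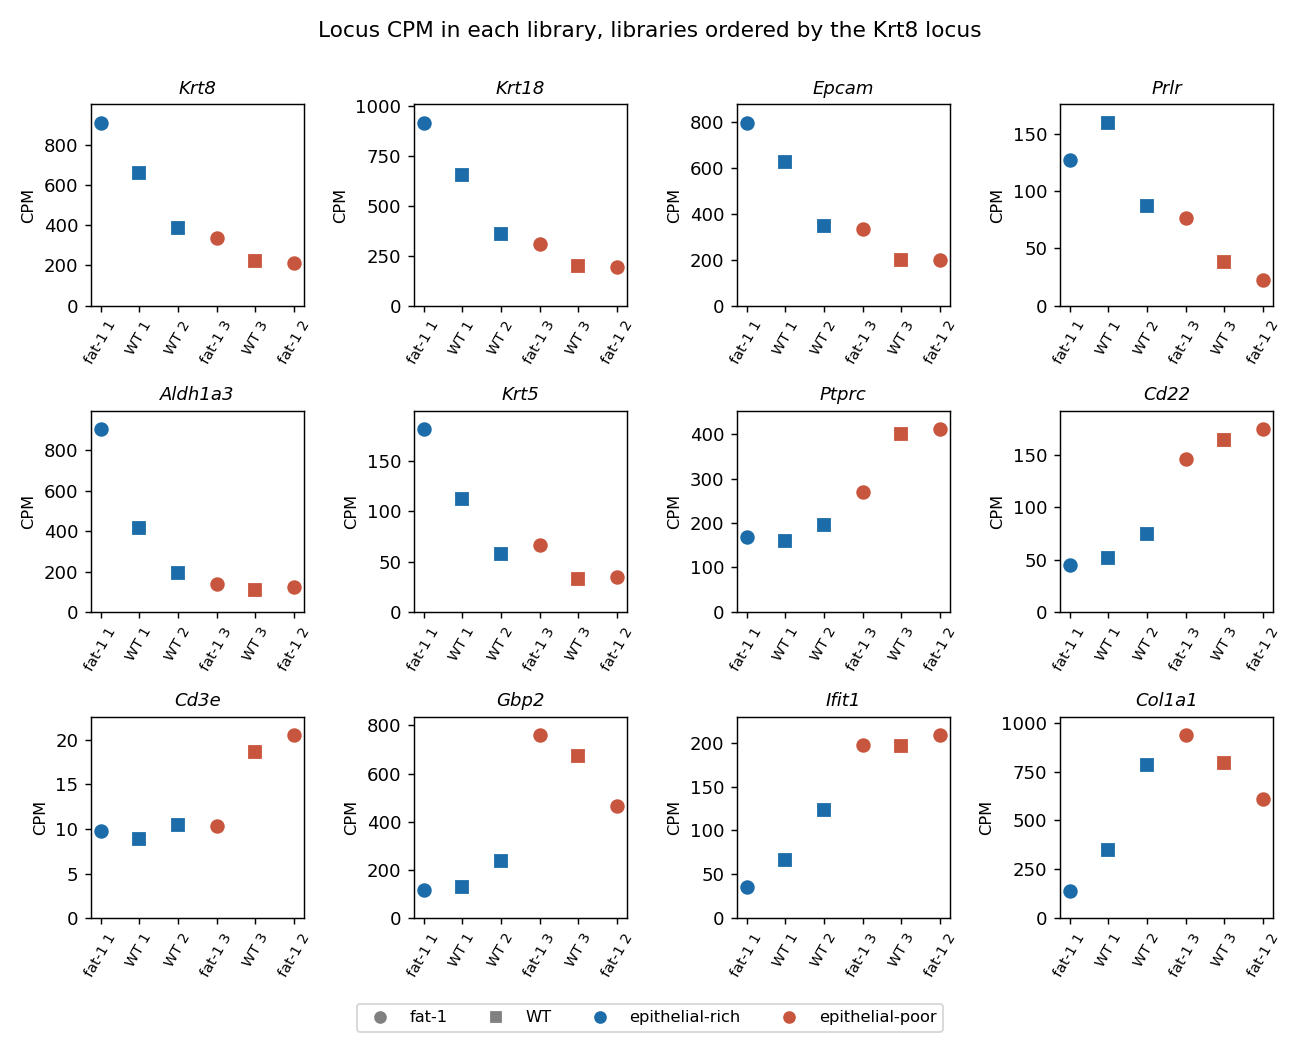
CPM of 12 loci (vertical axes, linear, from 0) in each of the 6 libraries (horizontal axes, ordered by the *Krt8* locus), with circles for *fat-1*, squares for WT and colours for the sets. The epithelial loci in the top row fall from left to right, except that *Prlr* is highest in WT sample 1, *Ptprc* and *Cd22* are higher in the epithelial-poor libraries, *Cd3e* of *fat-1* sample 3 lies with the epithelial-rich libraries at 10.3 CPM, and *Col1a1* is lowest in *fat-1* sample 1 at 137 CPM.

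Without the *Krt8* locus, 14659 loci were compared. The values of the sets did not overlap for 2363 loci that were higher in the epithelial-rich set (16.1%) and 2484 that were higher in the epithelial-poor set (16.9%). A locus was counted as apart when, in addition, the geometric means of CPM + 0.1 differed by at least 1.5-fold, which left 853 loci higher in the epithelial-rich set (5.82%) and 1063 higher in the epithelial-poor set (7.25%). Their median differences were 1.97-fold and 1.88-fold, and 406 and 412 of them reached 2-fold. A difference of 4-fold was reached by 6 loci on the epithelial-rich side and by 26 on the epithelial-poor side.

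The loci that were apart formed a gradient rather than a pair of even levels. Relative to the mean of the 6 libraries, the 853 loci of the epithelial-rich side had median log2 levels of 0.73, 0.61 and 0.09 in the epithelial-rich libraries and -0.13, -0.64 and -0.69 in the epithelial-poor libraries. The 1063 loci of the epithelial-poor side had -0.60, -0.48 and -0.32 against 0.22, 0.60 and 0.58. WT sample 2 and *fat-1* sample 3 took the middle in both. Without these libraries the counts were 1893 and 1767, without WT sample 2 alone 1575 and 1601, and without *fat-1* sample 3 alone 1540 and 1316.

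The ratios were also taken within each genotype. Within *fat-1*, sample 1 was set against samples 2 and 3, and within WT, samples 1 and 2 were set against sample 3. Over all 14659 loci, 1057 (7.21%) were at least 1.5-fold higher on the epithelial-rich side within both genotypes and 955 (6.51%) on the epithelial-poor side, while 79 reached 1.5-fold in opposite directions. The loci that were apart have the same direction within both genotypes by their choice, and 725 of the 853 and 869 of the 1063 reached 1.5-fold in both. Across the 14659 loci, which are not independent of each other, Pearson's r between the ratios of both genotypes was 0.674 and Spearman's rho was 0.617.

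**Figure D2:**
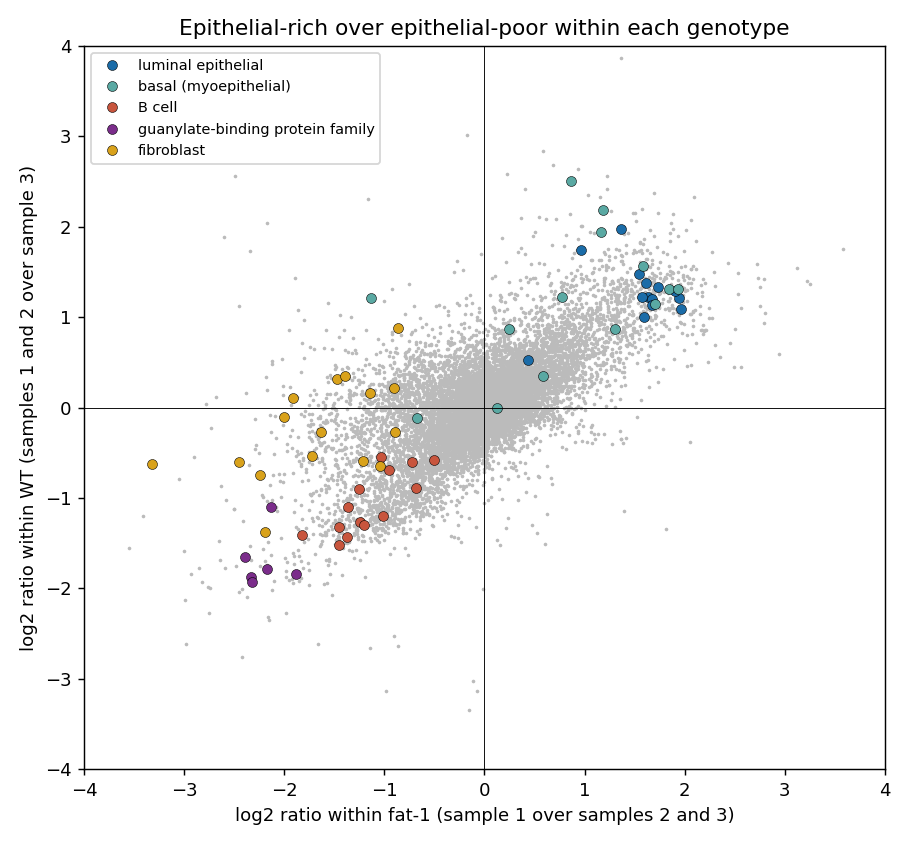
Log2 ratio of epithelial-rich over epithelial-poor libraries within *fat-1* (horizontal axis) and within WT (vertical axis), with a grey point for each locus and coloured points for members of 5 gene lists. Luminal and basal loci lie mostly in the upper right, B cell and guanylate-binding protein loci in the lower left, and fibroblast loci lie to the left with WT ratios on both sides of 0. 6 loci lie outside the axes.

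Of the 14 luminal epithelial loci compared beside *Krt8*, 10 were apart and higher in the epithelial-rich set and 0 in the other, with a median log2 ratio of 1.31 against 0.01 over all loci. *Krt19*, a keratin of luminal cells, was at 232, 319 and 202 CPM in the epithelial-rich libraries and 144, 64.4 and 56.7 CPM in the epithelial-poor libraries. Its log2 ratio was 1.61 ± 0.46, and WT sample 1 rather than *fat-1* sample 1 was the highest. *Cldn4*, which codes for a claudin of tight junctions, was at 1167, 766 and 380.1 CPM in the epithelial-rich libraries and 374, 254 and 239.7 CPM in the epithelial-poor libraries. The sets did not overlap, but WT sample 2 and *fat-1* sample 3 were close together. *Cdh1*, the gene of E-cadherin, was at 526, 409 and 220.2 CPM in the epithelial-rich libraries and 245, 129 and 128 CPM in the epithelial-poor libraries, so that its sets overlapped although its log2 ratio was 1.18. *Cd24a* had the lowest log2 ratio of the list, 0.51.

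Cell junction genes and epithelial transcription factors showed the same pattern. Of 19 loci of tight junctions, adherens junctions and desmosomes, 11 were apart and higher in the epithelial-rich set and 0 in the other (median log2 ratio 1.27). *Dsp*, which codes for the desmosomal plaque protein desmoplakin, was at 228, 172 and 89.8 CPM in the epithelial-rich libraries and 80.2, 45.1 and 39.04 CPM in the epithelial-poor libraries. Of 16 loci of transcription and splicing factors of epithelia, 13 were apart in the same direction (median log2 ratio 1.39). *Grhl2*, a grainyhead factor that drives epithelial adhesion genes, was at 29.5, 24.03 and 15.4 CPM in the epithelial-rich libraries and 12.1, 7.06 and 5.69 CPM in the epithelial-poor libraries. *Esrp1*, a splicing factor of epithelial cells, was at 91.9, 71.7 and 39.2 CPM in the epithelial-rich libraries and 37.4, 19.2 and 17.3 CPM in the epithelial-poor libraries. All of these loci had positive log2 ratios. In the 8 junction loci that were not apart, *fat-1* sample 3 lay above WT sample 2.

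Most hormone-sensing luminal genes were also higher in the epithelial-rich set, with positive log2 ratios for 10 loci of the list. Of 12 loci, 8 were apart and higher in the epithelial-rich set, 1 was apart and higher in the epithelial-poor set, and the median log2 ratio was 1.03. *Prlr*, the prolactin receptor, was at 128, 160.3 and 87.7 CPM in the epithelial-rich libraries and 76.6, 37.97 and 22.6 CPM in the epithelial-poor libraries. *Foxa1*, a factor that opens chromatin for the estrogen receptor, was at 60.3, 68.9 and 35.6 CPM in the epithelial-rich libraries and 30.8, 14.8 and 13.4 CPM in the epithelial-poor libraries. *Esr1*, the estrogen receptor alpha, was at 19.6, 23.8 and 15.1 CPM in the epithelial-rich libraries and 13.8, 8.09 and 9.10 CPM in the epithelial-poor libraries, and *Pgr*, the progesterone receptor, at 215, 247 and 143 CPM in the epithelial-rich libraries and 143, 73.2 and 67.95 CPM in the epithelial-poor libraries. *Tnfsf11*, the gene of RANKL, which luminal cells secrete in response to progesterone and which T cells and stromal cells of lymph nodes also make, ran the other way, at 0.412, 0.514 and 0.607 CPM in the epithelial-rich libraries and 1.19, 2.27 and 1.62 CPM in the epithelial-poor libraries. Its log2 ratio was -1.52 ± 0.29, at levels near 1 CPM. *Ly6a*, whose locus also holds *Ly6i*, was higher in every epithelial-poor library too, but by less than 1.5-fold (log2 ratio -0.22). It was at 494, 495 and 515 CPM in the epithelial-rich libraries and 596, 623 and 541 CPM in the epithelial-poor libraries.

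Of 8 loci of luminal progenitors, 7 were apart and higher in the epithelial-rich set, and *Kit*, a receptor tyrosine kinase, was not apart (log2 ratio 0.45). *Aldh1a3*, an aldehyde dehydrogenase that makes retinoic acid, was at 906, 417 and 194 CPM in the epithelial-rich libraries and 137, 106 and 125 CPM in the epithelial-poor libraries. *Elf5*, a transcription factor of the alveolar lineage, was at 12.3, 24.7 and 15.99 CPM in the epithelial-rich libraries and 12.2, 4.43 and 3.73 CPM in the epithelial-poor libraries. For *Aldh1a3* the level of *fat-1* sample 1 stood far above the others, and for *Elf5* it lay beside that of *fat-1* sample 3. The milk protein genes *Csn2*, *Csn1s1*, *Wap* and *Lalba* had means under 1 CPM and were not compared.

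Basal genes differed in the same direction as luminal genes, but the libraries next to the boundary changed places. Of 14 basal loci, 13 had positive log2 ratios, with a median of 1.05, yet only *Trp63* was apart. WT sample 2 lay above *fat-1* sample 3 in 2 of these 14 loci, against 10 of the 14 luminal loci. *Krt5* was at 182, 113 and 57.3 CPM in the epithelial-rich libraries and 66.2, 32.4 and 34.2 CPM in the epithelial-poor libraries. *Acta2*, the smooth muscle actin that lets basal cells contract, was at 74.9, 94.7 and 44.1 CPM in the epithelial-rich libraries and 70.2, 27.5 and 27.3 CPM in the epithelial-poor libraries. *Trp63*, the gene of the factor p63 that keeps the basal state, was at 6.65, 13.6 and 6.49 CPM in the epithelial-rich libraries and 4.99, 1.99 and 1.63 CPM in the epithelial-poor libraries. Its log2 ratio was 1.68 ± 0.59. *Tagln* was counted in a locus that is led by *Sidt2*, so its value does not describe *Tagln* alone.

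The largest differences on the epithelial-rich side belonged to genes of several kinds. The 12 loci with the largest ratios and a mean of at least 10 CPM were *Aldh3a1*, *Wfdc2*, *Tenm4*, *Fxyd2*, *Fcgbp*, *Muc15*, *Abcc3*, *Aldh1a3*, *Lratd1*, *Rasgrf1*, *Itga8* and *Zfp185*, with log2 ratios from 2.18 to 1.63. *Aldh3a1* (chr11:61207537-61218421, plus strand), an aldehyde dehydrogenase, was at 51.5, 25.4 and 15.9 CPM in the epithelial-rich libraries and 7.56, 7.72 and 3.71 CPM in the epithelial-poor libraries. *Wfdc2*, a small secreted protein with a whey acidic protein domain, was at 247, 119 and 53.9 CPM in the epithelial-rich libraries and 40.1, 27.4 and 19.9 CPM in the epithelial-poor libraries. *Fcgbp*, a mucus protein, was at 67.9, 52.1 and 47.98 CPM in the epithelial-rich libraries and 16.8, 11.8 and 15.6 CPM in the epithelial-poor libraries, with a log2 ratio of 1.92 ± 0.22, which was the smallest spread among the 12. *Fcgbp* also had the widest gap at the boundary among these 12 loci, 47.98 CPM in WT sample 2 against 16.8 CPM in *fat-1* sample 3.

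The 2 libraries with the most *Krt8* did not hold the same balance of epithelial genes. *Slpi*, a secreted protease inhibitor, was at 1496, 679 and 282 CPM in the epithelial-rich libraries and 269.9, 201 and 182 CPM in the epithelial-poor libraries, so that *fat-1* sample 1 had 2.20 times the level of WT sample 1, and for *Aldh1a3* that factor was 2.17 and for *Wfdc2* 2.08. *Elf5*, *Trp63*, *Prom1* and *Krt19* were higher in WT sample 1, with *Prom1* at 25.6, 43.4 and 25.9 CPM in the epithelial-rich libraries and 19.6, 9.94 and 8.72 CPM in the epithelial-poor libraries. In 11 of the 12 hormone-sensing loci WT sample 1 lay above *fat-1* sample 1, while *fat-1* sample 1 lay above WT sample 1 in 11 of the 14 luminal loci. These are single libraries of different genotypes, so the comparison has no replicate.

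On the epithelial-poor side, genes of leukocytes and of B cells were higher nearly throughout. Of 12 loci found in all leukocytes, 11 were apart and higher in the epithelial-poor set and 0 in the other (median log2 ratio -0.98). Of 14 B cell loci, 12 were apart in that direction (median log2 ratio -1.11). The 13 loci led by a list member summed to 556, 645 and 687 against 1172, 1510.4 and 1525 CPM in the 2 sets. *Cd22*, an inhibitory receptor of B cells whose locus also holds *Ffar1*, was at 45.3, 51.4 and 74.3 CPM in the epithelial-rich libraries and 147, 165 and 175 CPM in the epithelial-poor libraries. *Cxcr5*, the receptor that leads B cells into lymph node follicles, was at 29.9, 34.7 and 29.8 CPM in the epithelial-rich libraries and 72.4, 92.3 and 92.9 CPM in the epithelial-poor libraries. For both genes *fat-1* sample 3 lay nearer to the other epithelial-poor libraries than to any epithelial-rich one. *Cd79a* was counted in a locus led by *Arhgef1*, so its value is uncertain.

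Genes of antigen presentation and of antibodies were higher in the same libraries. All 9 loci of MHC class II presentation that were compared were apart and higher in the epithelial-poor set (median log2 ratio -1.05). *Cd74*, the invariant chain of MHC class II, was at 457, 492 and 521 CPM in the epithelial-rich libraries and 807, 1030.1 and 1041 CPM in the epithelial-poor libraries. Of 9 loci of immunoglobulin constant regions, 7 were apart in this direction. *Ighm*, whose locus also holds *Ighd*, was at 1009, 1113 and 1082 CPM in the epithelial-rich libraries and 1654, 2447 and 2393 CPM in the epithelial-poor libraries. *Ighg2b*, of a switched isotype, had the largest ratio of the 12 named on this side, at 3.34, 3.19 and 4.23 CPM in the epithelial-rich libraries and 33.2, 8.57 and 40.4 CPM in the epithelial-poor libraries. Its log2 ratio of -2.63 ± 0.71 rests on 2 *fat-1* libraries, since WT sample 3 had 8.57 CPM. Of 10 plasma cell loci, 5 were apart and higher in the epithelial-poor set. The plasma cell list includes immunoglobulin constant genes such as *Ighm*, *Igkc* and *Ighg2b*, so its count overlaps with the one above. *Xbp1* and *Sdc1*, which secretory epithelia also express, had positive log2 ratios of 0.43 and 0.61.

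T cell genes separated the libraries in another place. Of 19 loci of T and NK cells, 13 were apart and higher in the epithelial-poor set (median log2 ratio -0.69). The loci led by a list member, however, summed to 379.7, 355 and 397 against 464, 771 and 754 CPM, so that *fat-1* sample 3 lay nearer to the epithelial-rich libraries. *Cd3e*, a chain of the T cell receptor complex, was at 9.79, 8.89 and 10.5 CPM in the epithelial-rich libraries and 10.3, 18.6 and 20.5 CPM in the epithelial-poor libraries, and the sets overlapped. *Lck*, the kinase that acts beside that receptor, was at 25.9, 23.4 and 27.2 CPM in the epithelial-rich libraries and 32.4, 48.5 and 52.98 CPM in the epithelial-poor libraries. *Gzmb*, the gene of the cytotoxic protease granzyme B, was instead at 5.89, 6.27 and 8.90 CPM in the epithelial-rich libraries and 21.4, 20.7 and 18.99 CPM in the epithelial-poor libraries, with *fat-1* sample 3 the highest of all. The summed lists therefore do not give 1 ratio of T to B cell RNA in the epithelial-poor set.

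Macrophage, dendritic, neutrophil and mast cell genes differed less evenly. Of 13 macrophage loci, 6 were apart and higher in the epithelial-poor set and 1, *Cd14*, was apart and higher in the epithelial-rich set. The median log2 ratio was -0.71, and -0.79 over the loci led by a list member. Over the 5 loci with a mean of at least 10 CPM it was 0.19, which is the ratio of the locus led by *Eif4a1*. The loci led by a list member summed to 121, 132 and 151.0 against 143, 160.0 and 151.3 CPM, so that the sets overlapped. They also overlapped for *Lyz2*, with a log2 ratio of -0.39. *Cd14*, a receptor for bacterial products that luminal progenitors also carry, was at 48.96, 59.3 and 54.1 CPM in the epithelial-rich libraries and 35.3, 29.4 and 22.4 CPM in the epithelial-poor libraries. *Timd4*, a receptor of resident macrophages, was at 0.805, 0.747 and 1.07 CPM in the epithelial-rich libraries and 2.77, 3.66 and 3.64 CPM in the epithelial-poor libraries, and *Lyve1*, shared by macrophages and lymphatic endothelium, was at 15.5, 4.44 and 6.05 CPM in the epithelial-rich libraries and 23.6, 30.4 and 35.9 CPM in the epithelial-poor libraries. *Cd68* was counted in a locus led by *Eif4a1*. Of 7 dendritic cell loci, 3 were apart, and of 7 neutrophil and mast cell loci, 1 was apart, all of them higher in the epithelial-poor set. The mast cell genes *Mcpt4*, *Cma1* and *Tpsb2* were lowest in *fat-1* sample 1, where *Mcpt4* had 5.85 CPM against 23.7 CPM in WT sample 1.

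Some genes of lymph node stroma were measured although the nodes had been removed. Of 11 loci on that list, 5 were apart and higher in the epithelial-poor set and 0 in the other (median log2 ratio -0.75). The list includes *Cr2* and *Fcer2a*, which are also members of the B cell list, so the lists are not separate. The median was -0.44 without *fat-1* sample 1 and -0.51 over the 6 loci with a mean of at least 10 CPM. *Glycam1*, a ligand of lymphocytes on high endothelial venules that milk-producing cells also make, was at 40.9, 25.5 and 22.8 CPM in the epithelial-rich libraries and 114, 102 and 122 CPM in the epithelial-poor libraries. *Cxcl13*, the chemokine that draws B cells into follicles, was at 1.89, 1.15 and 3.32 CPM in the epithelial-rich libraries and 9.68, 7.73 and 7.38 CPM in the epithelial-poor libraries. Both genes were at least 2-fold higher in every epithelial-poor library than in any epithelial-rich one. *Ccl21a*, a chemokine of T cell zones, lies on 2 assembled loci and has near-identical copies, so its counts are uncertain. *Pdpn*, which fibroblasts and basal cells also express, and *Ltbr* did not follow, with log2 ratios of -0.07 and 0.34. Whether remnants of nodes were in the pools was not tested.

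Stromal genes did not follow the *Krt8* order. Of 16 fibroblast loci, 4 were apart and higher in the epithelial-poor set (median log2 ratio -0.73), and the list summed to 2507, 5496 and 8983 CPM in the epithelial-rich libraries and 9506, 7693 and 6484 CPM in the epithelial-poor libraries. *fat-1* sample 1 lay below WT sample 1 in 16 of the 16 loci, while WT sample 2 lay with the epithelial-poor libraries. *Col1a1*, a chain of type I collagen, was at 137, 351 and 784 CPM in the epithelial-rich libraries and 935, 794 and 610.4 CPM in the epithelial-poor libraries. *Col3a1*, the chain of type III collagen, was at 87.7, 320.1 and 1015 CPM in the epithelial-rich libraries and 1200.2, 881 and 645 CPM in the epithelial-poor libraries. Without *fat-1* sample 1 the median log2 ratio of the fibroblast list was -0.31. *Pi16*, a marker of a fibroblast population around vessels, was at 20.3, 30.7 and 69.6 CPM in the epithelial-rich libraries and 85.3, 120.0 and 102 CPM in the epithelial-poor libraries and was apart.

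Several gene lists barely differed between the sets. Of 14 endothelial loci, 2 were apart and higher in the epithelial-rich set, among them *Vwf* at 31.8, 24.8 and 19.9 CPM in the epithelial-rich libraries and 16.5, 18.1 and 11.2 CPM in the epithelial-poor libraries, and 1, *Pecam1*, was apart and higher in the epithelial-poor set. None of 89 loci of cytosolic ribosomal proteins and none of 10 of mitochondrial protein-coding genes were apart, with median log2 ratios of -0.09 and 0.19. Of 17 genes that respond within minutes to stress and cell isolation, 1, *Fos*, was apart and higher in the epithelial-rich set. Adipocyte genes such as *Adipoq*, *Lep* and *Plin1* had means under 1 CPM. Of the 6 adipocyte loci that were compared, 1 was apart and higher in the epithelial-rich set. *Fabp4* and *Lpl* had means of 105 and 95.6 CPM, with log2 ratios of 0.14 and -0.59. *Sox10*, a transcription factor of Schwann cells that mammary epithelial cells also express, was at 30.4, 40.7 and 26.2 CPM in the epithelial-rich libraries and 23.8, 8.49 and 8.41 CPM in the epithelial-poor libraries and was apart.

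**Figure D3:**
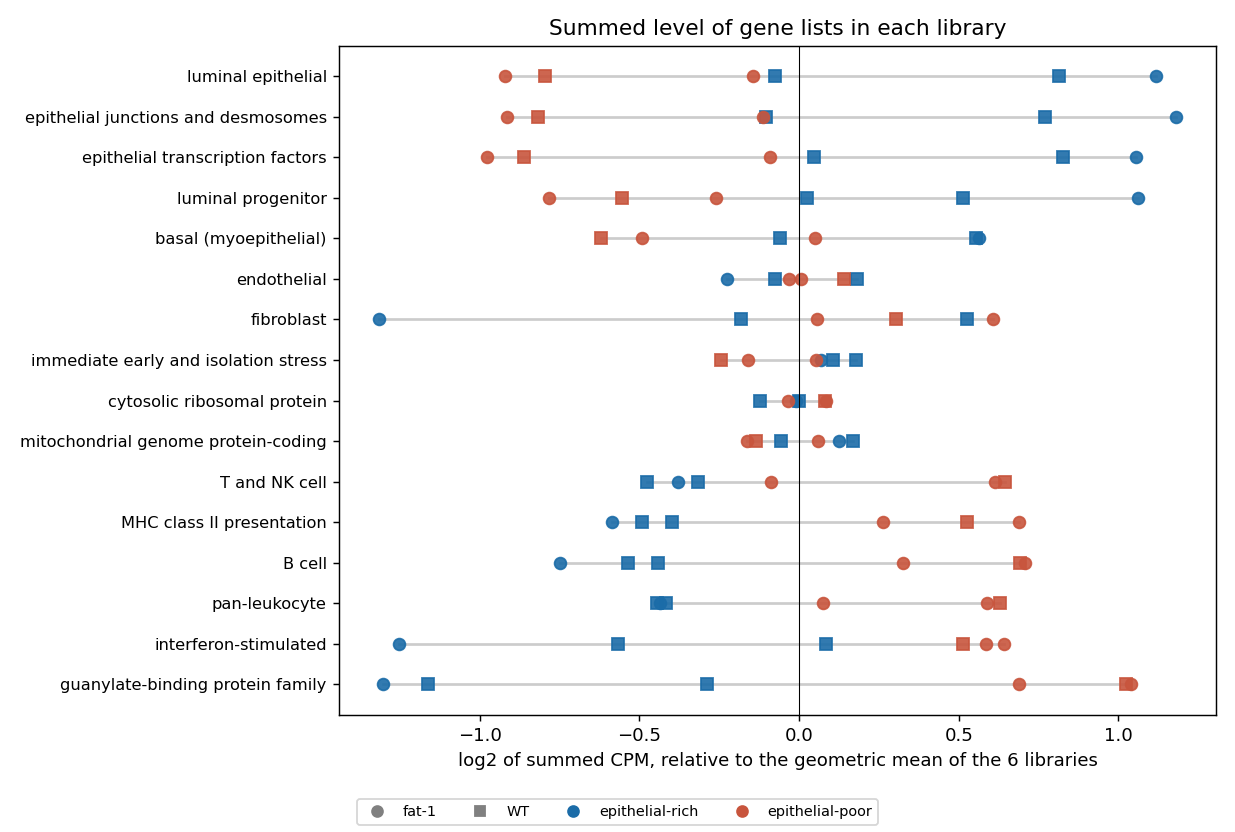
Summed CPM of the loci led by a list member, for 16 gene lists in each library (horizontal axis, log2 relative to the geometric mean of the 6 libraries), with circles for *fat-1*, squares for WT and colours for the sets. The luminal list includes *Krt8*. The sets do not overlap for the luminal list or for any of the T, B, leukocyte, MHC class II and interferon-related lists, the basal sums of WT sample 2 and *fat-1* sample 3 are in reverse order, and the fibroblast sums overlap.

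Genes of cell division were higher in the epithelial-poor set where they differed. Of 18 loci, 6 were apart and higher in that set and 0 in the other (median log2 ratio -0.67). Over the 8 loci with a mean of at least 10 CPM the median was -0.28. These include the loci led by *Syngr2* and *Rnf111*, which hold *Birc5* and *Ccnb2*. Over the 16 loci led by a list member the median was -0.73. *Mki67*, a protein of dividing nuclei, was at 9.79, 9.46 and 19.5 CPM in the epithelial-rich libraries and 24.3, 21.2 and 22.1 CPM in the epithelial-poor libraries. *Top2a*, a topoisomerase of dividing cells, was at 7.68, 7.98 and 14.3 CPM in the epithelial-rich libraries and 20.5, 20.9 and 18.8 CPM in the epithelial-poor libraries. WT sample 2 lay between the other epithelial-rich libraries and the epithelial-poor ones for both genes. *Pcna* had a log2 ratio of 0.07.

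Among the largest ratios on the epithelial-poor side were those of many genes that interferons induce. Of the 12 loci with the largest ratios and a mean of at least 10 CPM, 10 are not immunoglobulin genes, namely *Iigp1*, *Serpina3f*, *Gm12250*, *Cxcl9*, *Cxcl10*, *Serpina3g*, *Ifi47*, the locus of *Igtp* and *Irgm2*, *Gbp2* and *Gbp5*, with log2 ratios from -2.61 to -1.99. Most of these are GTPases and chemokines that interferon gamma induces. *Gbp2* (chr3:142620602-142638008, plus strand), a guanylate-binding GTPase that attacks microbe-containing vacuoles, was at 119, 131 and 239 CPM in the epithelial-rich libraries and 758, 673 and 465 CPM in the epithelial-poor libraries. Its locus also holds *Gbp2b*, and its geometric mean was 3.99 times as high in the epithelial-poor set. *Iigp1*, an immunity-related GTPase, was at 60.8, 72.2 and 142 CPM in the epithelial-rich libraries and 640.1, 618 and 360.5 CPM in the epithelial-poor libraries. *Cxcl9*, a chemokine for activated T cells, was at 24.8, 65.7 and 172 CPM in the epithelial-rich libraries and 435, 313 and 195 CPM in the epithelial-poor libraries. For *Gbp2*, *Iigp1* and *Cxcl9*, *fat-1* sample 3 was the highest library and *fat-1* sample 1 was the lowest. *Serpina3f*, *Serpina3g*, *Gm12250* and *Ifi47* were instead highest in WT sample 3, and *Serpina3f* and *Serpina3g* were lowest in WT sample 1.

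The families of these genes differed together. All 6 guanylate-binding protein loci that were compared were apart and higher in the epithelial-poor set (median log2 ratio -1.85), and so were 6 of 7 loci of immunity-related GTPases (median -2.07). The remaining locus, *Irgq*, had a log2 ratio of 0.22. Both families were gathered after the largest ratios had been seen, and several of their loci hold neighbouring paralogs that share reads. The guanylate-binding loci summed to 481, 530.1 and 972 CPM in the epithelial-rich libraries and 2442, 2412 and 1914 CPM in the epithelial-poor libraries.

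Regulators of the interferon response were higher in the same libraries. Of 15 loci of the Irf and Stat families, 7 were apart and higher in the epithelial-poor set and 0 in the other. *Irf8*, a factor of B cells, dendritic cells and macrophages, was at 56.1, 57.2 and 68.8 CPM in the epithelial-rich libraries and 179.8, 207 and 202 CPM in the epithelial-poor libraries. *Irf1*, which interferon gamma induces in many cell types, was at 114, 95.2 and 125 CPM in the epithelial-rich libraries and 338, 319.6 and 274 CPM in the epithelial-poor libraries. *Stat3* had a log2 ratio of -0.00.

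The broader list of interferon-stimulated genes formed steps within the epithelial-rich set. Of 15 loci, 13 were apart and higher in the epithelial-poor set (median log2 ratio -1.20). *Ifit1*, which binds foreign RNA, was at 35.6, 65.8 and 123 CPM in the epithelial-rich libraries and 197, 196 and 208 CPM in the epithelial-poor libraries. *Irf7*, a regulator of type I interferon genes, was at 124, 210.3 and 297 CPM in the epithelial-rich libraries and 364, 342 and 348 CPM in the epithelial-poor libraries. In 15 of the 15 loci *fat-1* sample 1 lay below WT sample 1, with a median log2 difference of -0.78, against -0.17 for the guanylate-binding loci, -0.01 for the leukocyte loci and -1.13 for the fibroblast loci. Without *fat-1* sample 1 the median log2 ratio of the interferon-stimulated list was -0.81.

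The order of the libraries by *Gbp2* was not that by *Ptprc*. Not all interferon-induced genes followed *Gbp2*, since *Ifi47* was highest at 256 CPM in WT sample 3, where *Ptprc* was at 400.0 CPM. *fat-1* sample 3 had 269 CPM of *Ptprc*, the lowest of the epithelial-poor set, and 758 CPM of *Gbp2*, the highest. *fat-1* sample 2 had 411 CPM of *Ptprc* and 465 CPM of *Gbp2*. In the epithelial-rich set WT sample 2 had 196 CPM of *Ptprc* and 239 CPM of *Gbp2*, while *fat-1* sample 1 had 168 and 119 CPM. Which cells carried this RNA cannot be told apart in bulk libraries.

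**Figure D4:**
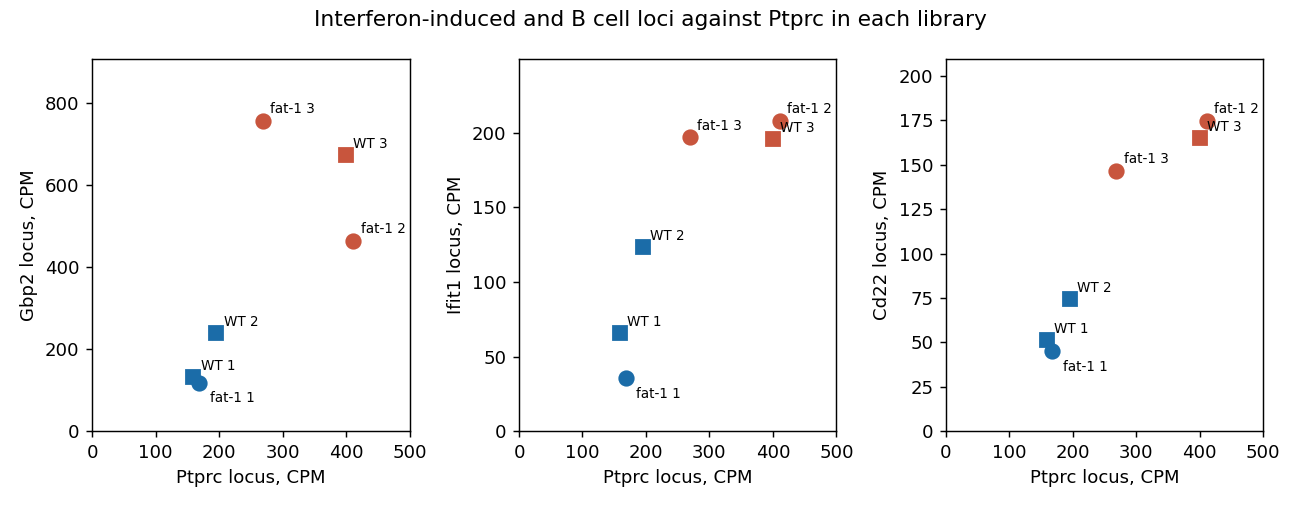
CPM of *Gbp2*, *Ifit1* and *Cd22* (vertical axes) against CPM of *Ptprc* (horizontal axes) in the 6 libraries, with circles for *fat-1*, squares for WT and colours for the sets. *Cd22* is highest in the 3 libraries with the most *Ptprc*, *Gbp2* is highest at 758 CPM in *fat-1* sample 3, where *Ptprc* is at 269 CPM, and *Ifit1* is between 196 and 208 CPM in the 3 epithelial-poor libraries.

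Promoters of these genes are shown because they carry a motif that the interferon-induced families share. The windows ran from 250 bases before to 50 bases after each start site in RefSeq (GRCm38.p6), and 3 motifs, chosen after the values had been seen, were searched on both strands. The first is GAAANNGAAA, the core of the interferon-stimulated response element to which Irf factors bind, and it reads TTTCNNTTTC on the other strand. Below, the 250 bases before the start site are given 5′ to 3′ on the strand of the gene, with matches to the motif in capitals, for *Gbp2* (chr3:142620413-142620662, plus strand), *Irgm1* (chr11:48871421-48871670, minus strand), *Ifit1* (chr19:34640639-34640888, plus strand) and *Cxcl10* (chr5:92348890-92349139, minus strand). *Ifit1* holds the motif 2 times, and in *Irgm1* 2 matches share bases. The RefSeq start sites differ from the gene positions of GENCODE M21 for 2 of these genes. By GENCODE, *Gbp2* begins at 142620602, inside its window, and the window of *Irgm1* lies within the gene (48861968-48871683).
Gbp2: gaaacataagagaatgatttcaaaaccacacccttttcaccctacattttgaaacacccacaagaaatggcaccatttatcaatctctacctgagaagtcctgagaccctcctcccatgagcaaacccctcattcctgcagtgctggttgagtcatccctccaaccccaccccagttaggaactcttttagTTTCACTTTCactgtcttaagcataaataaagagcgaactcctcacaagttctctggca
Irgm1: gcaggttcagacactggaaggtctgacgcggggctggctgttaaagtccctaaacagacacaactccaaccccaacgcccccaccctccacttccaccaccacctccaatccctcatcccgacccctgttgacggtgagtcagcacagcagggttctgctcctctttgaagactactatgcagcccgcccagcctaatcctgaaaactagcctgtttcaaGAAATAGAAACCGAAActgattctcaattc
Ifit1: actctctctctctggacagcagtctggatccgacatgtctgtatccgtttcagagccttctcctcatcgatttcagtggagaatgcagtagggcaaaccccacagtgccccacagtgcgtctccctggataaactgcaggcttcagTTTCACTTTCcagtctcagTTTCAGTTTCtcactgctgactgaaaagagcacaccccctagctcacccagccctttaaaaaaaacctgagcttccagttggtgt
Cxcl10: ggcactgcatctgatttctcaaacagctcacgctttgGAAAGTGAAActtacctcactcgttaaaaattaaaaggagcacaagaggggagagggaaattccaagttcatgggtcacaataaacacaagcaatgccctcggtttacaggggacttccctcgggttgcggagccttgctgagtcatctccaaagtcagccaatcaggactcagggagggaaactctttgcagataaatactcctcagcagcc

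The motif was found for 3.993% of the 27025 genes with a window, where a gene counted if any of its windows held it, and for 3.814% of the 10043 leading genes of compared loci. It was found for 12.22% of the leading genes of loci higher in the epithelial-poor set (82 of 671) and for 4.013% of those higher in the epithelial-rich set (24 of 598). It was present for 7 of 11 interferon-stimulated genes, 5 of 5 guanylate-binding protein genes and 6 of 8 immunity-related GTPase genes that had a window, and for 1 of 9 B cell genes.

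The second motif was TTCNNNGAA, the gamma-activated sequence to which Stat factors bind. It was found for 11.77% of the genes of the epithelial-poor side and 7.692% of those of the epithelial-rich side, beside 8.294% of the compared genes. The third was AACNGGTT, which grainyhead factors bind, with 3.01% on the epithelial-rich side, 2.534% on the epithelial-poor side and 2.201% of the compared genes, and 0 of 10 junction genes. The first 2 motifs occurred together in 149 of 32851 windows and shared a base in 24. A match is a stretch of letters and not a measured binding site, no test was made, and near-identical promoters of paralogs are not independent.

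The genotype comparison, which is the contrast of the labels, was then fitted without and with the set as a term. With genotype as the only term, 0 of 24061 loci (0%) passed an adjusted threshold of 0.05 in the quasi-likelihood test of edgeR, 274 (1.14%) passed 0.05 before adjustment, and DESeq2 gave 8 loci after adjustment. With the set as a second term, the same test gave 0 loci (0%) after adjustment, with a smallest adjusted *p*-value of 0.959, and 741 loci (3.08%) at the unadjusted threshold. Both unadjusted shares lie under 0.05, the share that this threshold passes where no locus differs. The biological coefficient of variation was 0.302 without the term and 0.219 with it. The unadjusted calls of both fits shared 186 loci, all in the same direction. The set was defined from these libraries, so the second fit is a description of how the spread is divided and not an independent test.

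The term narrowed the error mainly for the lists that separate the sets. The median standard error of the log2 fold change between *fat-1* and WT was 0.454 for B cell loci without the term and 0.143 with it, 0.609 and 0.321 for luminal loci, 0.748 and 0.305 for guanylate-binding loci, and 0.465 and 0.455 for fibroblast loci. The median log2 fold change moved from 0.16 to 0.55 for luminal loci, from 0.16 to -0.18 for B cell loci and from 0.12 to -0.50 for interferon-stimulated loci. The 15 luminal loci of these fits include *Krt8*, which defined the set, so their values are not independent of the term. In these 5 lists, 0 members passed 0.05 in either fit of edgeR, before or after adjustment.

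**Figure D5:**
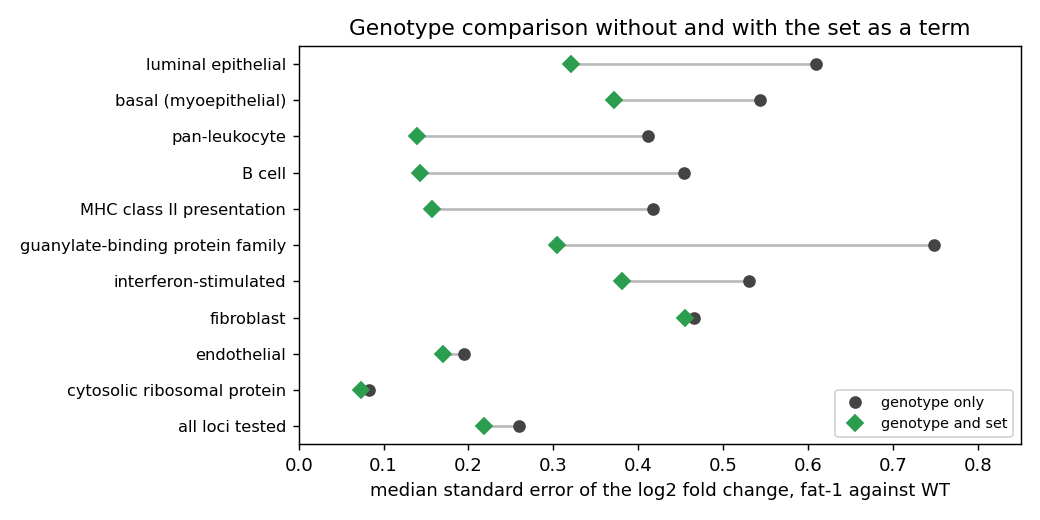
Median standard error of the log2 fold change between *fat-1* and WT (horizontal axis) for the loci of 10 gene lists and for all 24061 loci tested, with circles for the fit with genotype only and diamonds for the fit with genotype and set. For B cell loci it goes from 0.454 to 0.143, while it hardly moves for fibroblast and ribosomal protein loci. The luminal list includes *Krt8*, which defined the set.

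Of the loci that were lower in *fat-1*, *Arl4a* and *Gm45660* had the smallest *p*-values in the second fit, and of those that were higher, *Ccl21b* and *Muc4*. Direction follows the genotype in the column names, and RNA of the transgene, which would check those names, was not analysed here. The study lists *Arl4a* as higher in *fat-1*, the opposite of the direction given here, and the reason was not tested. *Arl4a*, a small GTPase of the Arf family, was at 11.0, 13.7 and 14.3 CPM in *fat-1* samples 1, 2 and 3 and at 26.5, 28.8 and 27.9 CPM in WT samples 1, 2 and 3. The genotypes did not overlap, with a log2 fold change of -1.10 (SE 0.142) without the set and -1.17 (SE 0.133) with it, and an adjusted *p*-value of 0.959 in the second fit of edgeR. *Muc4*, a membrane mucin of epithelia, was at 10.6, 5.37 and 4.42 CPM in *fat-1* and at 5.28, 4.60 and 3.07 CPM in WT. Its log2 fold change was 0.65 (SE 0.372) without the set and 0.89 (SE 0.153) with it, with an adjusted *p*-value of 0.959 in the second fit of edgeR. *Ccl21b*, a chemokine gene with near-identical copies, was at 0.264, 1.37 and 0.970 CPM in *fat-1* and at 0.0762, 0.0732 and 0.288 CPM in WT, so that the genotypes overlapped. *Gm45660* was at 0.284 CPM at the most in any library. Leaving out WT sample 1 gave 1 locus past the adjusted threshold with genotype as the only term.

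Of the 9 genes that the study called by both of its methods, 0 were apart between the sets. Over all loci compared, 5.82% were apart on the epithelial-rich side and 7.25% on the epithelial-poor side. A count of 0 among 9 genes is near these shares and does not set the genes apart from other loci. The median log2 ratio of the 9 genes was 0.04. The study chose them on these samples, so the list is not independent of them. *Gpld1*, which codes for a phospholipase, had the largest log2 ratio of the 9, 0.89, at 17.6, 9.83 and 6.09 CPM in the epithelial-rich libraries and 6.96, 5.14 and 4.50 CPM in the epithelial-poor libraries. *fat-1* sample 1 was its highest library, and the sets overlapped between WT sample 2 and *fat-1* sample 3. *Nrip1*, a corepressor of nuclear receptors, was at 77.7, 80.7 and 75.9 CPM in the epithelial-rich libraries and 69.1, 71.4 and 71.4 CPM in the epithelial-poor libraries, with a log2 ratio of 0.14 ± 0.03.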

How the data were processed

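RNA from 3 *fat-1* and 3 WT pooled samples was sequenced, and genotype and replicate number were taken from the sample labels. According to the methods and the submitters' processing notes, the authors aligned paired-end reads by HISAT2 (build GRCm38) and passed them to StringTie for assembly and quantification. They deposited estimated counts for each assembled row as whole numbers that had not been normalized. How coverage became counts, the annotation, the tool versions and the use of strand are not given in the sources used here, so overlapping genes are uncertain. No value column was without a sample (0 columns).

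The libraries were ranked by the *Krt8* locus as stated in the report. Rows that share an assembled locus number were summed, and CPM was taken from the deposited totals. Loci with a mean of at least 1 CPM over all 6 libraries were compared, with a pseudocount of 0.1 CPM for ratios. The members, gene lists and motifs were chosen with earlier results of these data known. The planned design was no test between the sets. The genes named are *Krt8*, *Krt18* and *Ptprc*, up to 4 loci of each list with the highest mean CPM, the member furthest against the majority of its list, the 12 largest ratios on each side with a mean of at least 10 CPM, and the 2 smallest *p*-values in each direction of the genotype fit with the set as a term. Other genes, such as *Tnfsf11*, *Trp63*, *Glycam1*, *Gzmb*, *Irf1* and *Slpi*, were named after their values had been seen. Some genes that the rule names are not reported here. Gene families were gathered by symbol after the data were seen, and the adjustment for *Krt8* as a covariate was added then too.

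For genotype, edgeR 4.0.16 under R 4.3.3 was used with its quasi-likelihood test (filterByExpr, TMM normalization, Benjamini–Hochberg adjustment), and with DESeq2 1.42.0 as an alternative, and the procedure was tested on simulated data. A standard error of a fold change is the log2 fold change over the square root of the F statistic. The labels do not say that samples were separate cultures or sequencing batches, so *p*-values measure the spread between these pooled samples. Alternatives were other filters, normalizations, pseudocounts and ratios, unsummed rows, a replicate block and leaving out each sample. Positions are from GENCODE M21 and promoters from RefSeq GRCm38.p6, both matched by symbol, with 10043 of 14653 leading genes having a promoter. Python 3.11.15, numpy 2.4.6, pandas 2.3.3 and matplotlib 3.10.9 were used.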

Additional observations from a re-analysis of the deposited data

Results flagged for a closer look

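For 8 of the named loci, every comparison between the sets within *fat-1* had the opposite sign to that within WT, and the difference between the genotypes was not tested. Within *fat-1* the single epithelial-rich library is sample 1, and within WT the single epithelial-poor library is sample 3. *Car3*, a carbonic anhydrase of fat and muscle, had a log2 ratio of -1.81 within *fat-1* and 0.97 within WT. *Igfbp5*, an insulin-like growth factor binding protein, had -1.13 within *fat-1* and 1.22 within WT. *Pdgfra*, a growth factor receptor of fibroblasts, had -0.86 within *fat-1* and 0.88 within WT. *Dcn*, a matrix proteoglycan of fibroblasts, had -0.91 within *fat-1* and 0.22 within WT, and *Pdpn* had -0.72 and 0.35. *Pparg*, a regulator of fat cells, had -0.30 within *fat-1* and 0.44 within WT. *Pcna*, at 0.20 within *fat-1* and -0.09 within WT, and *Rplp0*, at 0.045 and -0.09, differed by little in either genotype.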

How the results depend on the processing

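The counts of loci apart between the sets were 853 on the epithelial-rich side and 1063 on the epithelial-poor side. They were 457 and 585 with a mean of at least 10 CPM, where fewer loci are compared, 406 and 412 with a ratio of at least 2, and 1893 and 1767 without the 2 libraries next to the boundary. Leaving out each library in turn gave 796 to 1575 and 992 to 1601, with 1575 and 1601 without WT sample 2 and 1540 on the epithelial-rich side without *fat-1* sample 3. Other normalization, filters, pseudocount and unsummed rows kept both counts within 1.5 times. Of 368 recomputed list medians, 10 in 6 lists changed sign. The macrophage median of -0.71 was 0.19 over members with a mean of at least 10 CPM, where fewer loci are compared. That value is the ratio of the locus led by *Eif4a1*. The median of neutrophil and mast cell loci went from -0.37 to 0.14 without *fat-1* sample 1. The others were in the endothelial, pericyte, adipocyte and erythroid lists, with medians of 0.06, 0.08, 0.14 and -0.16. Beside the macrophage median, 13 moved by more than the spread, some of them among these. Of 1395 recomputed ratios of named loci, 30 in 21 loci changed sign, none of them of a locus that was apart, and their size was at most 0.32 before the change.

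For genotype, the adjusted count was 0 by edgeR in each fit of all 6 libraries and 8 by DESeq2, and 0 to 1 when each library was left out, with the 1 locus without WT sample 1. The unadjusted count of 274 became 741 with the set as a term, 671 with the *Krt8* level as a covariate, 579 without a filter, where more loci are tested, and 678 on unsummed rows. Leaving out each library gave 204 to 542, with 542 when WT sample 3 and 482 when *fat-1* sample 1 was absent. The cause of the other changes was not tested. Samples with the same replicate number were not always the most alike. Their correlations of deviations were 0.787, -0.161 and 0.115, and *fat-1* sample 2 correlated best with WT sample 3 and *fat-1* sample 3 with WT sample 2. These correlations follow the levels of the libraries and cannot tell whether same-numbered samples were prepared together. With a replicate block, 376 loci passed before and 0 after adjustment. At this depth, levels under 0.0129 to 0.0147 CPM cannot be told from 0.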
